A study of Mus musculus with 12 samples.

Results

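The stefin A cluster comprised 6 protein-coding genes, Stfa2l1, Cstdc4, Stfa1, Cstdc5, Stfa2 and Stfa3, of the 37620 genes in the deposited count table. They were taken by name and matched by Ensembl ID, and they were chosen by measured values, since Stfa1 and Cstdc5 were lower at 65 than at 2 weeks while other neutrophil genes were higher. Differences with age of the members and of the neutrophil genes are therefore given as a description, without a test. The libraries were RNA-seq of BECs, the endothelial cells of bone, freshly isolated from c57/Bl6 mice, an inbred laboratory strain. The cells were purified through endomucin, which capillary endothelium of bone carries on its surface. Their source is given as tibia, whereas the study's methods for isolating BECs name both tibiae and femurs, and this was not resolved. The 4 groups were females of 2 weeks (F.2weeks), males of 2 weeks (M.2weeks), females of 65 weeks (F.65weeks) and males of 65 weeks (M.65weeks), with 3 libraries each, and no treatment or altered allele is labelled in any of them. The labels do not say whether replicates came from separate animals, so p-values measure only the spread between these libraries.

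Stefins are small cystatins of the cytosol. They block papain-like cysteine cathepsins, proteases that normally work in lysosomes, and are thought to protect a cell from protease that leaks out. Humans carry a single stefin A gene, CSTA, whereas in mice the gene was duplicated into a row of close copies. Mouse stefin A transcripts are well known from neutrophils, short-lived granulocytes of the marrow, and stefin A is also known from the outer layers of skin.

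The members lie within 298.7 kb of chromosome 16 (GRCm39, 35977176 to 36275884), where GENCODE M39 annotates 31 genes of any type and 9 protein-coding ones. Of these 9 genes 7 were in the table, namely the members and Cstdc6, while Csta2 and Csta3, between Cstdc4 and Stfa1, were not analysed here. In chromosome order Stfa2l1 (ENSMUSG00000059657) runs from 35977176 to 35982332 and Cstdc4 (ENSMUSG00000079597) from 36004483 to 36008484. Stfa1 (ENSMUSG00000071562) runs from 36093823 to 36105817, and these first members are on the plus strand. Cstdc5 (ENSMUSG00000071561, 36179743 to 36191595), Stfa2 (ENSMUSG00000022902, 36224305 to 36241288) and Stfa3 (ENSMUSG00000054905, 36270893 to 36275884) are on the minus strand. Each main transcript has 3 exons, a length between 428 nt (Stfa2l1) and 699 nt (Stfa1), and a coding part of 291 or 309 nt. Cstdc5 is overlapped by Gm15845, a long noncoding RNA on the opposite strand, and the use of strand in counting is not given in the sources used here. Within the span of Stfa2 lies a pseudogene on the same strand, Gm49652 (36239612 to 36241283), which was not in the table. Stfa2l1 shares exact windows of 75 nt with Gm49652 and with Stfa2.

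Of the 15 pairs of members, 2 were nearly identical. The coding sequences of Stfa1 and Cstdc5 matched over 97.94% of bases and differed at 6 of 291. Those of Stfa2 and Stfa2l1 matched over 96.44% and differed at 11 of 309. The other 13 pairs matched over 75.32% to 81.55%. The first 150 coding bases of both close pairs are shown because the counts of these genes depend on how reads from such stretches were assigned. Capitals mark the bases that differ within the pair, 4 in the first and 7 in the second.
Stfa1: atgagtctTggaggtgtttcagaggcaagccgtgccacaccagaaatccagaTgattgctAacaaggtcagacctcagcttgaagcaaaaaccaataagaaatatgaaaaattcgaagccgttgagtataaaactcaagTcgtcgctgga
Cstdc5: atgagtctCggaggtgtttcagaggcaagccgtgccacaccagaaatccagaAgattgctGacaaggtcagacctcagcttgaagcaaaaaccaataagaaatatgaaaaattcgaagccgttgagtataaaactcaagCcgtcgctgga
Stfa2: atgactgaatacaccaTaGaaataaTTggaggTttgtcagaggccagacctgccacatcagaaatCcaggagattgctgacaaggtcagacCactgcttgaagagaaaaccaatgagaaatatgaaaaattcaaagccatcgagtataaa
Stfa2l1: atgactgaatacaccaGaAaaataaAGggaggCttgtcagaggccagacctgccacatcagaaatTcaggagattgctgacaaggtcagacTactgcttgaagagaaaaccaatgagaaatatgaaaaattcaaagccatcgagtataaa

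**Figure D1:**
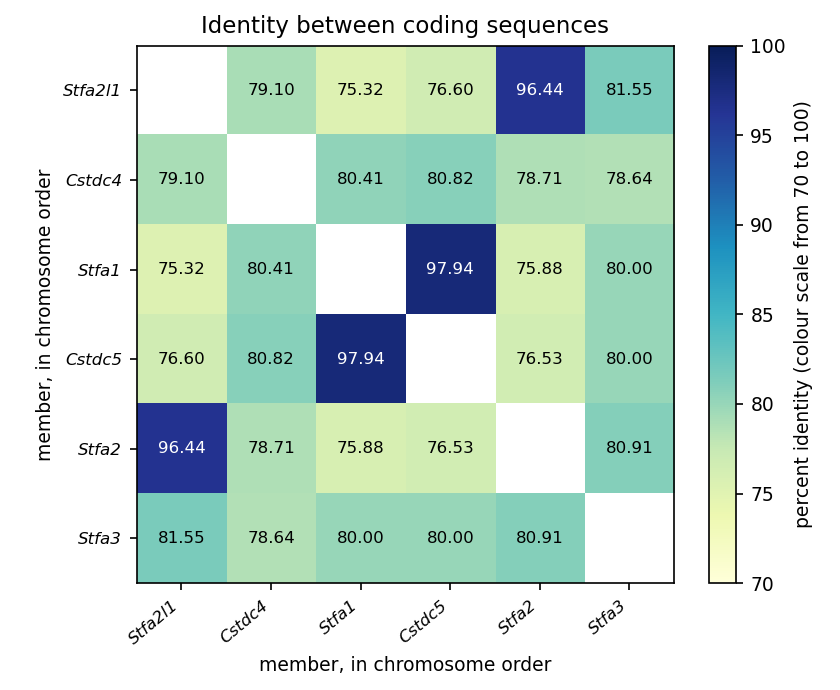
Percent of aligned coding bases that match between each pair of members, in chromosome order on both axes, with the diagonal left empty. The pairs Stfa1 and Cstdc5 (97.94%) and Stfa2 and Stfa2l1 (96.44%) stand above the other 13 pairs, which reach 81.55%.

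The share of each transcript that a read of 100 nt could not place was counted over all its 100 nt windows against the GENCODE M39 transcripts of other genes. Cstdc5 shared 13.05% of its windows exactly, with Stfa1 and Cstdc6. Cstdc4 shared 10.55%, with Csta2. Stfa1 shared 4.83%, with Cstdc5. No 100 nt window of Stfa2, Stfa3 or Stfa2l1 was found exactly in another gene. With 2 mismatches allowed, windows were compared only with transcripts of the other members and of the listed other cystatins. The share was then 45.68% for Cstdc5, 43.65% for Cstdc4, 37.99% for Stfa2l1, 37.5% for Stfa1, 27.08% for Stfa2 and 0% for Stfa3. Other genes, such as the pseudogenes of the cluster, were not searched in this way, so these shares are lower bounds. By these comparisons Stfa3 was the member whose reads could be placed most surely. How the authors treated reads that map to several places is not given in the sources used here. Values of single members other than Stfa3 may therefore be uncertain. These shares do not measure by how much, since reads were paired and windows with mismatches still differ between genes.

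The promoters were alike as well. All 6 members matched in RefSeq (GRCm38.p6, a different build from the gene coordinates above), and a run of 13 bases, ACCTTTAAAACCC, was found in each of the 6 promoters, taken from 250 bases before to 50 bases after the start. Of all 32851 promoters listed, 9 held this run on either strand (0.027%), the 6 members included. The run was picked from the members' own promoters, so this share is a description and not a test. The windows around it are shown because it is the longest stretch common to the 6 promoters, while their levels differ. The run is in capitals.
Stfa2l1 (chr16:36156750-36156797, plus strand): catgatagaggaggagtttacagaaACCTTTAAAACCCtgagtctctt
Cstdc4 (chr16:36184155-36184202, plus strand): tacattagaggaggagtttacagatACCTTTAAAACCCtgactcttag
Stfa1 (chr16:36277090-36277137, plus strand): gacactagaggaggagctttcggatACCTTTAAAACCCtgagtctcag
Cstdc5 (chr16:36367560-36367607, minus strand): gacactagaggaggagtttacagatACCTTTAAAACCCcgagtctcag
Stfa2 (chr16:36408373-36408420, minus strand): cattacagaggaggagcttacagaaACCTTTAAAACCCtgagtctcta
Stfa3 (chr16:36455404-36455451, minus strand): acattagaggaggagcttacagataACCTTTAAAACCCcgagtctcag
The run began 32 to 36 bases before the annotated start in 5 members and 12 bases before it in Cstdc5. Searched on both strands, GAGGAA, the core of PU.1 sites, was found in 6 of 6 promoters against 28.276% of all promoters. TTGCNNAA, a C/EBP motif, was found in 2 (Stfa1 and Cstdc5) against 10.797%, and TATAAA in 0 against 13.616%. PU.1 and C/EBP proteins are regulators of myeloid genes. These matches are descriptions of the letters in this window only.

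Total counts per library ran from 35012947 to 44569600 at 2 weeks and from 26044743 to 34088694 at 65 weeks. Members held 1133 to 6969 counts in each 2-week library and 14 to 2222 in each 65-week library, so that the lowest 65-week values rest on few reads. The summed level of 10 endothelial markers was 1595 to 2952 CPM (counts scaled to a library total of 1000000) at 2 weeks and 110 to 202 CPM at 65 weeks, with Cdh5 and Kdr, of endothelial junctions and VEGF signalling, the most abundant in F.2weeks at 590 ± 159 and 497 ± 149 CPM (SD, n = 3). Each of the 10 fell with age in both sexes (edgeR, largest adjusted p = 0.0002469, beside 29.5% and 28.5% of all genes called lower in females and males). The summed level of 14 mature neutrophil markers was 3565 to 5282 CPM at 2 weeks and 7871 to 18550 CPM at 65 weeks, and it was above the endothelial sum in each library. Keratinocyte markers summed to 0.482 to 2.43 CPM in every library, with Krt14 and Dsg3 at 0 in all 12. Sums over 65-week and 2-week libraries were 660 to 1458 and 957 to 1630 CPM for 6 eosinophil, basophil and mast cell markers. They were 1655 to 2633 and 1027 to 1574 CPM for 6 monocyte and macrophage markers. B cell markers, 5 in number, stood at 7087 to 18700 and 444 to 659 CPM, and 5 erythroid markers at 20460 to 32140 and 22450 to 42040 CPM. In bulk samples, fewer cells of a type and less RNA per cell cannot be told apart. By Xist and 4 Y-linked genes every library matched its labelled sex, but M.65weeks replicate 3 held 117 Xist counts, 3.35% of the mean female level of that age, against 0 to 3 in the other males. F.2weeks replicate 3 held 25 counts of the Y-linked genes, against 0 or 1 in the other females.

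At 2 weeks the cluster was abundant. The 6 members together were measured at 676, 605 and 560 CPM in F.2weeks and at 418, 377 and 564 CPM in M.2weeks. At 65 weeks the sum was 40.7, 47.8 and 67.6 CPM in F.65weeks and 159, 96.9 and 101.7 CPM in M.65weeks. Each 2-week library therefore stood above each 65-week library, the sexes overlapped at 2 weeks, and they did not overlap at 65 weeks. The means were 614 ± 58.6, 453 ± 98.3, 52.0 ± 13.9 and 119 ± 34.6 CPM in the same order (SD, n = 3 each).

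Stfa1 and Cstdc5, the nearly identical pair, were the most abundant members by counts at 2 weeks. Stfa1 was measured at 152, 129 and 122 CPM in F.2weeks, 87.4, 81.7 and 131 CPM in M.2weeks, 3.24, 3.23 and 3.855 CPM in F.65weeks, and 9.04, 7.85 and 5.22 CPM in M.65weeks. Cstdc5 was measured at 190, 167 and 160 CPM in F.2weeks, 108, 102 and 143 CPM in M.2weeks, 1.96, 1.79 and 2.93 CPM in F.65weeks, and 6.33, 4.04 and 3.42 CPM in M.65weeks. Both genes were lower in each 65-week library than in any 2-week library. Cstdc5 was the higher of the pair in every 2-week library and Stfa1 in every 65-week library: the ratio of Stfa1 to Cstdc5 counts was 0.765 to 0.915 over the 2-week libraries and 1.31 to 1.945 over the 65-week libraries.

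The other nearly identical pair, Stfa2 and Stfa2l1, parted with age. Stfa2 was measured at 74.5, 70.5 and 61.1 CPM in F.2weeks, 51.1, 42.4 and 66.2 CPM in M.2weeks, 0.620, 1.47 and 1.33 CPM in F.65weeks, and 3.07, 1.185 and 1.497 CPM in M.65weeks. Stfa2l1 was measured at 88.1, 84.45 and 76.6 CPM in F.2weeks, 60.2, 51.4 and 72.7 CPM in M.2weeks, 19.8, 22.6 and 35.65 CPM in F.65weeks, and 81.3, 45.7 and 50.3 CPM in M.65weeks. No 65-week library reached the 2-week range of Stfa2, whereas Stfa2l1 of M.65weeks lay on either side of its M.2weeks values, with replicate 1 above them and the other two below. The ratio of Stfa2 to Stfa2l1 counts was 0.797 to 0.911 over the 2-week libraries and 0.0259 to 0.0649 over the 65-week libraries.

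Cstdc4 and Stfa3 have no such close copy among the members. Cstdc4 was measured at 124, 110 and 93.9 CPM in F.2weeks, 80.6, 71.6 and 100.4 CPM in M.2weeks, 13.8, 17.3 and 23.3 CPM in F.65weeks, and 55.8, 36.6 and 38.7 CPM in M.65weeks. Stfa3, whose windows are not shared, was measured at 48.0, 43.9 and 46.2 CPM in F.2weeks, 30.9, 27.1 and 49.98 CPM in M.2weeks, 1.27, 1.32 and 0.478 CPM in F.65weeks, and 3.44, 1.52 and 2.61 CPM in M.65weeks. Each 65-week library was below each 2-week library of its sex in both genes.

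**Figure D2:**
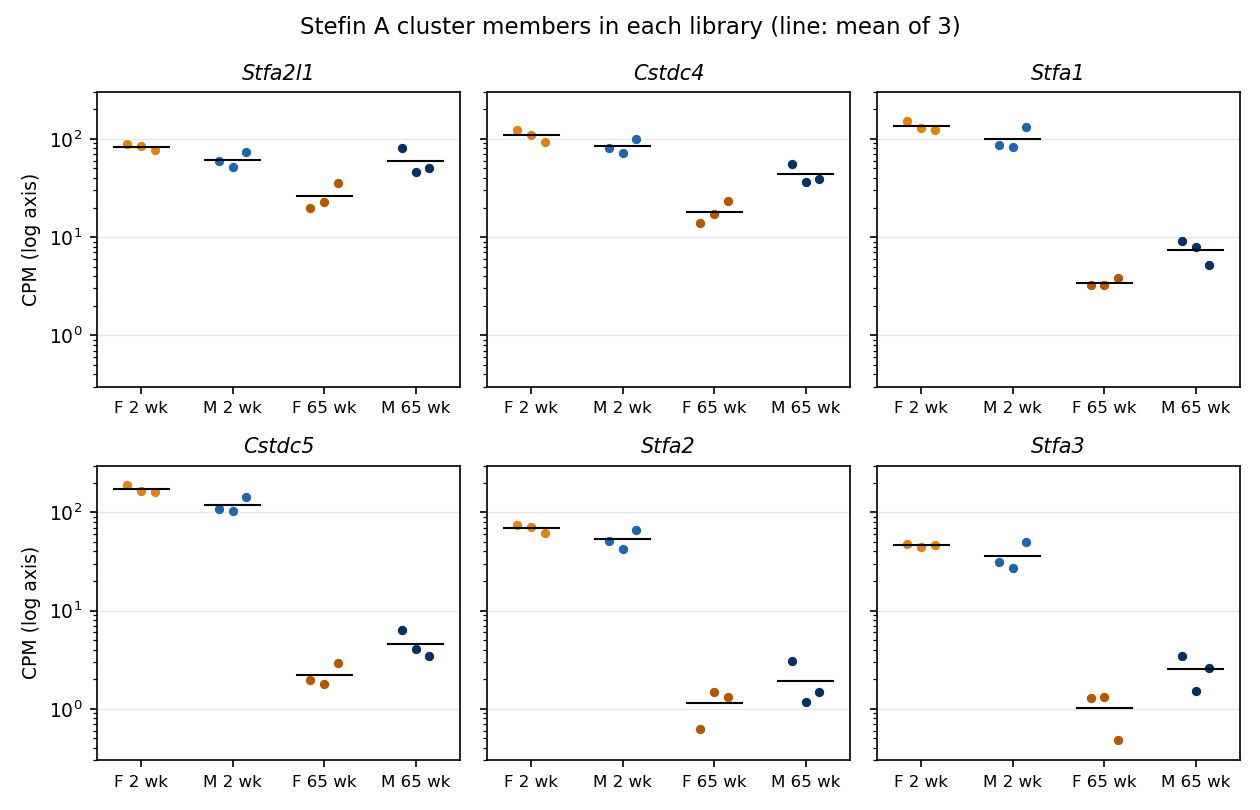
CPM of each member on a log axis in the 12 libraries, with 1 panel per member in chromosome order, 1 point per library and a line at the mean of each group of 3. Stfa2l1 and Cstdc4 remain between 13.8 and 81.3 CPM at 65 weeks, while the other 4 members lie between 0.478 and 9.04 CPM.

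To compare levels between members, CPM was divided by the length of the main transcript in kb. In F.2weeks Cstdc5 was highest at 278 ± 25.2 CPM per kb (SD, n = 3), without overlap with the next. Cstdc4 at 212 ± 29.5, Stfa2l1 at 194 ± 13.7 and Stfa1 at 192 ± 21.8 CPM per kb came after it and overlapped among themselves. Stfa2 at 132 ± 13.25 and Stfa3 at 84.0 ± 3.75 CPM per kb were below these, without overlap between any of them. The order was the same in M.2weeks, where every neighbour overlapped, from Cstdc5 at 190 ± 35.9 to Stfa3 at 65.7 ± 22.4 CPM per kb. In F.65weeks the order was another one. Stfa2l1 led at 60.8 ± 19.8 CPM per kb and Cstdc4 followed at 35.2 ± 9.305, without overlap with each other or with the rest. Stfa1 at 4.92 ± 0.516 overlapped with Cstdc5 at 3.595 ± 0.995, and below them Stfa2 at 2.19 ± 0.875 overlapped with Stfa3 at 1.87 ± 0.864 CPM per kb. In M.65weeks Stfa2l1 at 138 ± 45.3 and Cstdc4 at 84.7 ± 20.4 CPM per kb led again and overlapped, and the other 4 members were at 3.69 to 10.55 CPM per kb. Divided by the length of all annotated exons instead, Cstdc4, which has the longest, came last at 2 weeks and next to Stfa2l1 at 65 weeks.

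The makeup of the cluster differed more between the ages than between the sexes. Stfa2l1 made up 12.9% to 14.4% of the cluster's counts in the 2-week libraries and 47.2% to 52.8% in the 65-week libraries. Cstdc4 made up 16.8% to 19.3% and then 33.9% to 38.0%. Together they held most of the cluster at 65 weeks. Cstdc5 made up 25.4% to 28.6% at 2 weeks and 3.36% to 4.82% at 65 weeks, and Stfa1 20.9% to 23.3% and then 5.14% to 8.10%. Stfa2 made up 10.9% to 12.2% and then 1.22% to 3.07%, and Stfa3 7.10% to 8.87% and then 0.707% to 3.13%. Between females and males of 1 age the ranges overlapped for each member except Cstdc5 at 2 weeks, with 27.5% to 28.6% in F.2weeks and 25.4% to 27.2% in M.2weeks, a difference that was not tested.

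**Figure D3:**
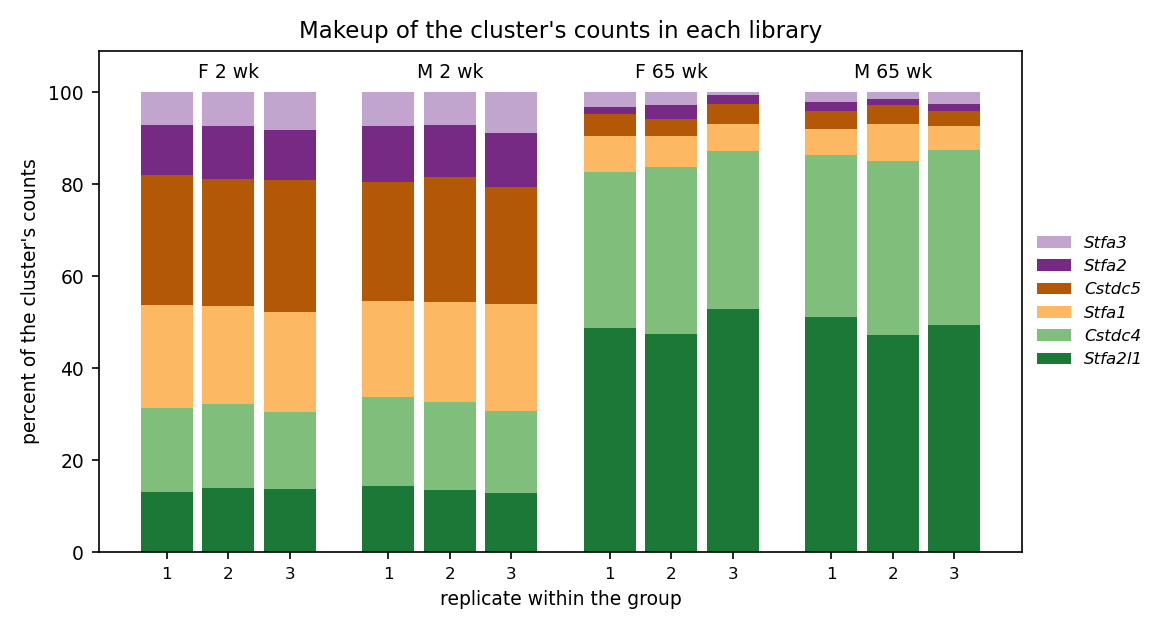
Percent of the summed counts of the 6 members that each member contributed in each of the 12 libraries, stacked in chromosome order from the bottom. The green parts, Stfa2l1 and Cstdc4, cover 30.45% to 33.7% of a 2-week bar and 82.6% to 87.5% of a 65-week bar.

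The age difference was estimated by edgeR as 65 over 2 weeks within each sex, and is given without a p-value because it chose the members. In females the log2 fold change was -6.14 ± 0.19 for Cstdc5, -5.76 ± 0.24 for Stfa2, -5.34 ± 0.27 for Stfa3 and -5.15 ± 0.13 for Stfa1 (± SE, 3 against 3 libraries). It was -2.46 ± 0.19 for Cstdc4 and -1.54 ± 0.20 for Stfa2l1. In fold, Cstdc5 was 70.6 times lower and Stfa2l1 2.91 times lower. All 6 had every 65-week library below every 2-week library, as had 41.6% of all genes tested. The smallest differences were thus those of the members at the low-coordinate end of the cluster.

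In males the estimates were -4.66 ± 0.37 for Stfa2, -4.55 ± 0.27 for Cstdc5, -3.71 ± 0.35 for Stfa3 and -3.63 ± 0.28 for Stfa1. Cstdc4 was at -0.82 ± 0.20 and Stfa2l1 at 0.07 ± 0.24, whose sign turned with library totals as scaling (-0.055) and without M.65weeks replicate 1 (-0.27) or M.2weeks replicate 2 (-0.05). In 5 of 6 members the ages did not overlap, all lower at 65 weeks (39.4% of all genes tested), and the exception was Stfa2l1. The median over the members was -5.25 in females and -3.67 in males, beside 0.006 and 0.008 over all genes tested.

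**Figure D4:**
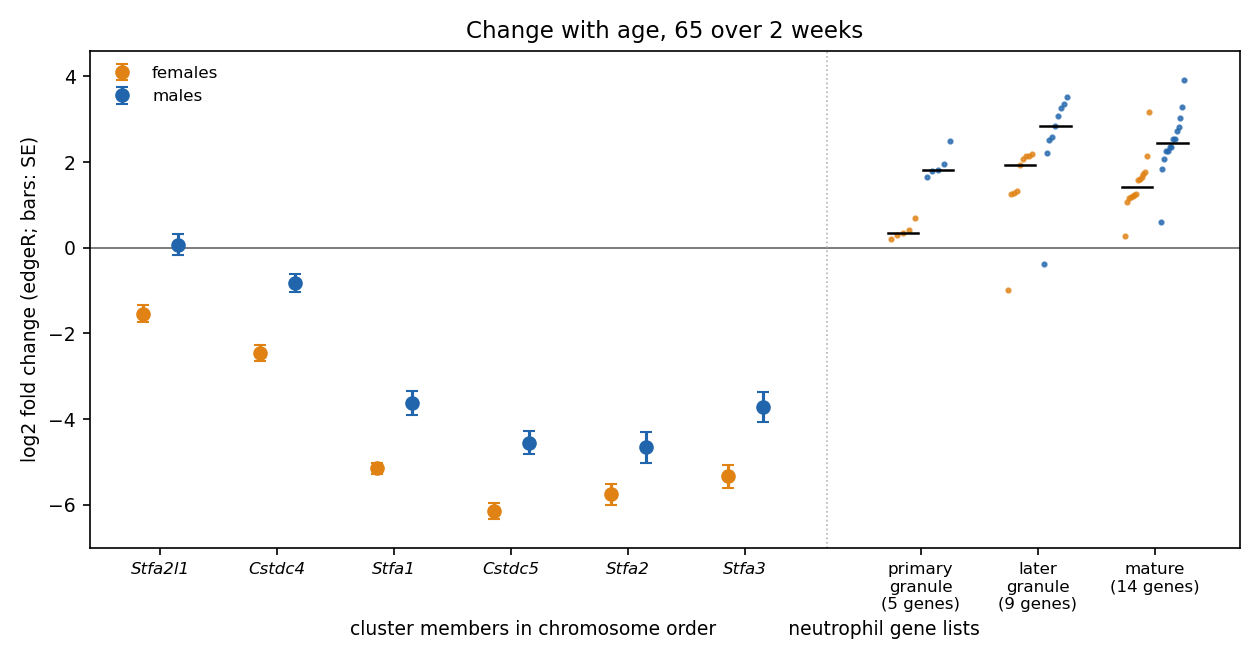
Log2 fold change of 65 over 2 weeks, with SE bars for the members in chromosome order on the left, and single genes of the 3 neutrophil lists with their medians (lines) on the right, females in orange and males in blue. Stfa2l1 and Cstdc4 lie between -2.46 and 0.07, the other 4 members between -6.14 and -3.63, and 27 of 28 neutrophil genes above 0 in each sex.

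Neutrophil genes, which served in the choice of the cluster, were set beside it. Of 28 genes in the primary granule, later granule and mature neutrophil lists, 27 had a positive age estimate in each sex, with a median log2 fold change of 1.27 in females and 2.50 in males. The exception was Mmp9, a gelatinase of tertiary granules that other cells also make, at -0.98 ± 0.13 and -0.39 ± 0.19. Ltf, Ngp and Camp, which encode contents of secondary granules, were at 2.20, 2.07 and 1.26 in females and at 3.51, 3.26 and 2.52 in males. S100a8 and S100a9, which encode calprotectin, were at 1.21 and 1.19 in females and at 2.35 and 2.36 in males. Relative to the neutrophil median, Stfa2l1 was at -2.81 and -2.43 on the log2 scale in females and males, and Cstdc5 at -7.41 and -7.05. As a percentage of the summed CPM of the mature neutrophil list, the cluster was at 12.8, 13.7 and 12.7% in F.2weeks and 11.7, 10.1 and 15.8% in M.2weeks. It was at 0.517, 0.503 and 0.568% in F.65weeks and 0.857, 0.609 and 0.803% in M.65weeks. Per mature neutrophil marker, the cluster was thus lower in every 65-week library, and the aged males stood above the aged females without overlap. Against the later granule list the aged sexes overlapped, with 0.517, 0.537 and 0.748% in F.65weeks and 1.09, 0.610 and 1.01% in M.65weeks.

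Sexes were compared as male over female within each age, a contrast that did not choose the members. At 2 weeks each member was lower in males, by a factor of 1.30 to 1.48, and no member passed the threshold (edgeR, 0 of 6, beside 0.0332% of all genes tested). The log2 fold change was -0.57 ± 0.13 for Cstdc5 (adjusted p = 0.2127), -0.455 ± 0.12 for Stfa2l1 (adjusted p = 0.2127) and -0.45 ± 0.17 for Stfa1 (adjusted p = 0.2614). For Cstdc4, Stfa2 and Stfa3 it was -0.40 ± 0.14, -0.39 ± 0.15 and -0.38 ± 0.20, with adjusted p from 0.2389 to 0.3371 by edgeR. At an unadjusted p under 0.05, 5 of 6 passed, beside 17.8% of all genes. In Cstdc5 and Stfa2l1 each male library was below each female one, as in 11.8% of all genes. DESeq2 on the same 6 libraries called these 2 members (adjusted p = 0.01204 and 0.03518, beside 3.18% of the genes it tested), and on all 12 libraries, a fit chosen after seeing the data, it called 0 (beside 1.81%). The median over the members was -0.42 (all genes, 0.011), and -0.64 without M.2weeks replicate 3, the male library with the highest value of every member.

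Markers of several cell types had the same sign at 2 weeks. Of the 28 neutrophil genes 26 were lower in males, with a median of -0.52 over the 28, and none was called. Without overlap were 22 of them, among them Ltf (-0.62 ± 0.15), Mpo (-0.555 ± 0.16) and S100a9 (-0.45 ± 0.10). Positive estimates were those of Mmp9 (0.24 ± 0.14) and Hp (0.01 ± 0.11). The eosinophil, basophil and mast cell sum was 957 and 985 CPM in M.2weeks replicates 1 and 2 and 1630 CPM in replicate 3, against 1431 to 1548 CPM in F.2weeks. All 5 B cell markers were lower in males (median -0.35), 3 of them without overlap and 4 at an unadjusted p under 0.05, and all 5 erythroid markers were lower too (median -0.27), with 0 at that p, while none of either list was called by edgeR. The 10 endothelial markers had positive estimates (median 0.32). The part of these cell types in the members' sex difference was not tested.

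At 65 weeks the members stood the other way round. Each was higher in males, by a factor of 1.68 to 2.44, and none passed the threshold (edgeR, 0 of 6, beside 0.0420% of all genes tested). The log2 fold change was 1.285 ± 0.50 for Stfa3 (adjusted p = 0.4249), 1.26 ± 0.24 for Cstdc4 (adjusted p = 0.1546) and 1.18 ± 0.29 for Stfa2l1 (adjusted p = 0.2129). It was 1.10 ± 0.27 for Stfa1 (adjusted p = 0.2196), 1.045 ± 0.35 for Cstdc5 (adjusted p = 0.3485) and 0.75 ± 0.52 for Stfa2 (adjusted p = 0.7006), again by edgeR. At an unadjusted p under 0.05, 5 of 6 passed, beside 10.4% of all genes, and in the same 5, all but Stfa2, each male library was above each female one, beside 9.32%. The median over the members was 1.14 (all genes, -0.002).

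The calls at 65 weeks depended on the tool and on 1 library. Without M.65weeks replicate 3, which held the Xist counts given above, edgeR called Stfa1 (1.315, adjusted p = 0.0189), Cstdc4 (1.37, adjusted p = 0.02318) and Stfa2l1 (1.31, adjusted p = 0.04482), beside 5.65% of all genes. DESeq2 called the same 3 members with all 6 libraries (adjusted p from 5.716e-05 to 0.0177, beside 2.84%), and 5 on all 12 libraries, chosen after seeing the data (beside 5.80%). In edgeR, 1 model of all 12 libraries called 3 (beside 1.61%) and the fit without a filter on low counts 1 (beside 0.516%). Without M.65weeks replicate 1, the male library with the highest value of each member, none was called and the median was 0.88. Over all alternatives the adjusted p of Cstdc4 ran from 1.012e-05 to 0.6037.

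Neutrophil genes were also higher in males at 65 weeks. All 28 had a positive estimate, with a median of 0.69, 19 of them without overlap, and none was called by edgeR. Elane and Mpo, of primary granules, were at 1.19 ± 0.40 and 1.08 ± 0.36, Ltf at 0.715 ± 0.20 and S100a8 at 0.76 ± 0.21. Cstdc4 and Stfa3 exceeded each of the 28 and Stfa1 and Stfa2l1 exceeded 27 of them, a difference that was not tested. Of 9 endothelial markers tested, 6 were positive and 3 negative, with a median of 0.055 and none called by edgeR. The 3 negative ones, among them Pecam1 (-1.12 ± 0.24), were without overlap, as was 1 of the positive ones. Of 6 monocyte and macrophage markers 5 were negative (median -0.12), with Csf1r (-0.66 ± 0.17) without overlap, and none was called by edgeR. The 5 B cell markers had negative estimates (median -0.29), all with overlap. The part of neutrophil content in the members' difference was not tested.

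**Figure D5:**
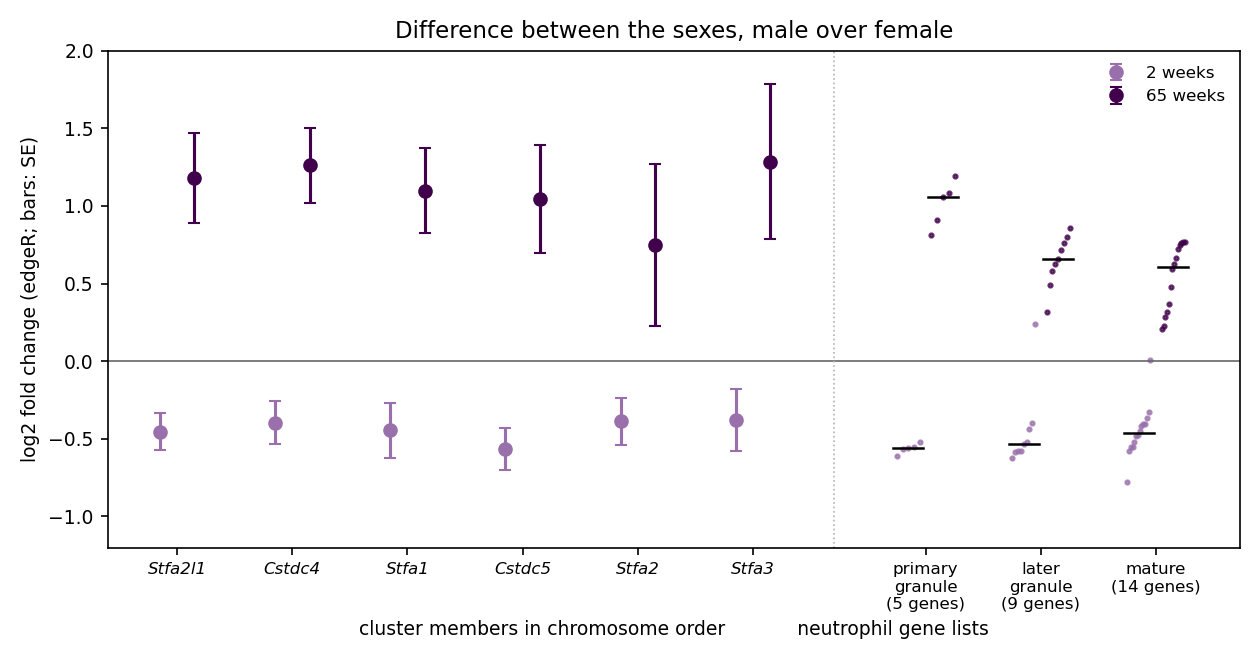
Log2 fold change of males over females at 2 weeks (light purple) and 65 weeks (dark purple), with SE bars for the members on the left and single genes of the 3 neutrophil lists with their medians (lines) on the right. The members lie between -0.57 and -0.38 at 2 weeks and between 0.75 and 1.285 at 65 weeks, and 26 of 28 neutrophil genes are below 0 at 2 weeks and 28 above 0 at 65 weeks.

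Whether the sex difference changed with age was asked with an interaction term on the 12 libraries. Each member was positive, with a log2 estimate of 1.64 ± 0.30 for Cstdc4, 1.63 ± 0.48 for Stfa3, 1.61 ± 0.35 for Stfa2l1, 1.59 ± 0.33 for Cstdc5, 1.52 ± 0.31 for Stfa1 and 1.10 ± 0.47 for Stfa2. No member passed the threshold by edgeR (0 of 6, beside 0.00635% of all genes tested), with adjusted p from 0.118 (Cstdc4) to 0.3862 (Stfa2). At an unadjusted p under 0.05, 6 of 6 passed, beside 11.9% of all genes. Without M.65weeks replicate 3 edgeR called Stfa1, Cstdc5, Cstdc4 and Stfa2l1 (adjusted p from 0.01028 to 0.02522, beside 4.66%). DESeq2 called these and Stfa3 with all 12 libraries (adjusted p from 0.0002779 to 0.03143, beside 2.32%). The 28 neutrophil genes were positive too, from 0.34 to 1.78 with a median of 1.16, and the median over the members was 1.60. The members share sequence and libraries, so that 6 estimates of 1 sign are not 6 independent observations.

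Of 8 other cystatins matched, 4 passed the filter on low counts in at least 1 comparison. Cst3, which encodes the secreted cystatin C, rose with age by 1.08 ± 0.13 in females (edgeR, adjusted p = 0.0002067) and by 0.395 ± 0.12 in males (adjusted p = 0.02624). The male call of Cst3 was lost in 6 of 12 alternatives: with library totals, without a filter on low counts, and without M.2weeks replicate 2 or 3 or M.65weeks replicate 1 or 3 (edgeR, adjusted p from 0.05197 to 0.1056). Cstb, the single gene of the related stefin B, was at 0.08 ± 0.15 and 0.24 ± 0.14 and was not called (adjusted p = 0.652 and 0.1832 by edgeR). Cst7, which encodes the leucocyte cystatin F, was at 0.255 ± 0.25 in females and rose by 1.01 ± 0.30 in males (adjusted p = 0.4126 and 0.02367 by edgeR). The male call of Cst7 was lost without each M.2weeks replicate (edgeR, adjusted p from 0.05743 to 0.08419), and its estimate was 0.575 without M.65weeks replicate 2. Cstdc6, the neighbour of Cstdc5, held 9 to 21 counts in each 2-week library and 0 or 1 at 65 weeks, and was thus lower at 65 weeks like the members. Its estimates had the members' signs for males over females at 2 weeks (-0.56 ± 0.34) and for the interaction (2.699 ± 1.775), without a call by edgeR (adjusted p = 0.3874 and 0.585). Cstdc6 shares exact 100 nt windows with Cstdc5, so that its few counts may not be independent of those of Cstdc5, which was not tested. Called genes made up 30.2% (higher) and 29.5% (lower) of all genes in females and 27.0% and 28.5% in males. Between the sexes no other cystatin was called by edgeR. At an unadjusted p under 0.05, 1 passed at each age, Cst3, beside 17.8% of all genes at 2 weeks and 10.4% at 65 weeks. Its signs were the reverse of the members', at 0.22 ± 0.09 at 2 weeks and -0.43 ± 0.15 at 65 weeks for males over females. The interaction of Cst3 was -0.68 ± 0.19 (edgeR, adjusted p = 0.184). Cst7 had the members' signs (-0.19 ± 0.16, 0.585 ± 0.34 and 0.75 ± 0.42 in the same order), and Cstb was positive in each (0.19 ± 0.10, 0.38 ± 0.18 and 0.16 ± 0.23).

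The papain-like cathepsins, the targets of stefins, moved in both directions with age. Of 10, edgeR called 6 higher and 3 lower in females, beside 30.2% and 29.5% of all genes. It called 3 higher and 3 lower in males, beside 27.0% and 28.5%. Ctsb, the most abundant, rose by 0.72 ± 0.09 in females (adjusted p = 0.0001994) and was at 0.45 ± 0.19 in males (adjusted p = 0.07347). Ctss, which trims the invariant chain of MHC class II in antigen-presenting cells, rose by 1.97 ± 0.10 and 1.37 ± 0.16 (edgeR, adjusted p = 3.7e-06 and 0.0002976). Ctsh and Ctsz also rose in both sexes, by 1.05 and 0.77 and by 0.75 and 0.52. Ctsc, which activates the serine proteases of neutrophil granules, rose in females by 0.69 ± 0.09 (edgeR, adjusted p = 0.0004221), as did Ctsw, of cytotoxic lymphocytes, by 0.905 ± 0.25 (edgeR, adjusted p = 0.01456). The call of Ctsw was lost without F.2weeks replicate 1 or 2 (edgeR, adjusted p = 0.0539 and 0.06625), and that of Ctsz in males without M.2weeks replicate 3 or M.65weeks replicate 1 (adjusted p = 0.05594 and 0.05449). Ctsk, the collagen-degrading cathepsin of osteoclasts, fell by 4.43 ± 0.20 in females and by 3.53 ± 0.34 in males, Ctsl fell by 2.36 ± 0.18 in females and fell by 2.435 ± 0.18 in males, and Ctsf fell by 0.99 ± 0.08 and 1.03 ± 0.13 (edgeR, largest adjusted p = 0.0004177). Between the sexes no cathepsin was called at either age by edgeR. At an unadjusted p under 0.05, 5 of 10 passed at 2 weeks, all higher in males, beside 17.8% of all genes. At 65 weeks 3 passed, 2 higher and 1 lower in males, beside 10.4% of all genes.

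Genes with the most similar profile were sought among 9593 other protein-coding genes, by the root mean square difference of log2 CPM centred on each gene's mean over the 12 libraries. Nearest to the sum of the cluster were Uaca (0.39), Colec12 (0.39), Septin4 (0.40), Col11a2 (0.41) and Smoc1 (0.42). Nearest to Cstdc4 were Lpl (0.29), Csf1 (0.34), Vegfa (0.37), Mfge8 (0.38) and Niban2 (0.40), compared with 0.45 for Stfa2l1 and 1.86 for Cstdc5. Cstdc5 was closest to another member, Stfa2, at 0.34, and outside the cluster to Cpe (0.41), Flt4 (0.43), Col1a2 (0.45), Col5a2 (0.47) and Ptx3 (0.48), at a distance of 2.29 from Stfa2l1. None of these 15 genes is in the neutrophil lists. The choice of the cluster largely set this in advance, since 27 of 28 neutrophil genes had a positive age estimate in each sex. The profiles rest mainly on the difference between the ages, which the 12 libraries share.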

How the data were processed

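Endomucin-purified BECs were sequenced as paired reads of 100 nt from a total RNA kit, after the 3 samples of best RNA quality were kept in each group. The authors deposited gene counts, not normalised, without pooling of replicates. The study's methods name STAR and featureCounts on GRCm39, whereas the submitters' processing notes name TopHat2, HTSeq and mm9, and this was not resolved. The highest Ensembl number in the table was 93789 and 47216 genes of GENCODE M39 have a higher one, so the annotation counted was older than M39. GENCODE M39 gave names, coordinates and transcripts (31052 of 37620 IDs matched), and RefSeq the promoters. Members were compared by coding sequence instead of the planned protein sequence, which was not used here.

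Libraries were grouped by labelled sex and age. CPM is the count scaled to a library total of 1000000. The quasi-likelihood test of edgeR 4.0.16 in R 4.3.3 was used (low counts removed by filterByExpr at a minimum of 10, TMM scaling, Benjamini-Hochberg adjustment, threshold 0.05; SE is the log2 change over the root of F) on 6 libraries per comparison, or 12 for the interaction. The script was tested on simulated data. DESeq2 1.42.0, other scalings, no filter, a replicate block, 1 model of 12 libraries, summed members, other windows and leaving out each library were tried. DESeq2 on 12 libraries for the sex comparisons was chosen after seeing the data. Named were the members, the 3 most abundant genes of each cystatin, cathepsin and cell type list where a result turned on them, called cystatins and cathepsins, and the 5 protein-coding genes nearest to the cluster sum, Cstdc4 and Cstdc5 (average log2 CPM of at least 3). Mmp9, Krt14 and Dsg3 were named after their values were seen, though Mmp9 is also among the 3 most abundant of its list. Camp was named outside this rule, since Ngp, Ltf, Mmp9 and Lcn2 were more abundant in its list. Members, lists and tests were chosen with earlier results of these data known. Total counts per library bear on the counting error only, and PCR copies were not marked. The SE of a log2 change also holds the spread between libraries.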

Additional observations from a re-analysis of the deposited data

Results flagged for a closer look

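In 2 members the order of the sexes turned between the ages without overlap. Each male library was below each female library at 2 weeks and above each at 65 weeks. At 2 weeks 22 of 28 neutrophil genes were likewise lower in males without overlap, beside 11.8% of all genes. At 65 weeks 19 of 28 were higher without overlap, beside 9.32% of all genes. Ltf, Ngp and S100a9 turned at both ages in this way. How many of all genes did so was not counted. For Stfa2l1, males were at 51.4 to 72.7 CPM and females at 76.6 to 88.1 CPM at 2 weeks, against 45.7 to 81.3 and 19.8 to 35.65 CPM at 65 weeks. The change of the sex difference was 1.61 ± 0.35 on the log2 scale (SE), and it was not called by edgeR (interaction, adjusted p = 0.1279). For Cstdc5, males were at 102 to 143 CPM and females at 160 to 190 CPM at 2 weeks, against 3.42 to 6.33 and 1.79 to 2.93 CPM at 65 weeks. Here the change was 1.59 ± 0.33 and likewise not called by edgeR (adjusted p = 0.1265). Groups of 3 libraries were too small to look for single outlying libraries.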

How the results depend on the processing

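The counts of called members were the values most open to the choice of processing. DESeq2 called 2 members between the sexes at 2 weeks, 3 at 65 weeks and 5 in the interaction, each against 0 by edgeR. At 65 weeks edgeR called 1 without a filter on low counts and 3 in 1 model of all 12 libraries, and DESeq2 on all 12 libraries, chosen after seeing the data, called 5. Leaving out single libraries gave 0 to 3 members at 65 weeks and 0 to 4 in the interaction, with the calls coming when M.65weeks replicate 3 was left out. Over all genes DESeq2 called 417, 363 and 353 against 5, 6 and 1 by edgeR, and edgeR without that library 830 at 65 weeks and 750 in the interaction. The median difference of the members kept its sign, from -0.643 to -0.316 at 2 weeks and from 1.289 to 1.765 in the interaction when each library was left out. With the members summed to 1 gene, the age difference was -3.468 in females and -1.799 in males, beside medians over the single members of -5.246 and -3.672. The age difference of Stfa2l1 in males was -0.055 with library totals, -0.049 without M.2weeks replicate 2 and -0.272 without M.65weeks replicate 1, against 0.071, and reached 0.218 without M.65weeks replicate 2. Library totals moved the median of all genes with age by -0.136 in females and -0.115 in males. The log2 ratio of the cluster to neutrophil genes over age was -4.627 in females and -4.814 against the later granule list, and -4.052 in males and -3.752 without S100a8 and S100a9. The median share of windows found exactly in another gene was 2.415% at 100 nt, 9.895% at 75 nt and 24.78% at 50 nt.

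Replicate numbers recur in each group, but nothing in the labels pairs them, and correlations of same-numbered libraries ran from -0.3554 to 0.1404. With the number as a replicate block edgeR called 0 members between the sexes at either age and in the interaction, with medians of -0.444, 1.111 and 1.592. At 65 weeks Stfa2 and Stfa3 rested on 14 to 94 counts per library.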
